A study of Mus musculus with 6 samples.

Results

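The 44 DNA repair genes described here were chosen by name from the 16729 genes of the deposited count table, and all 44 were found. They were sorted into 7 groups by what their proteins do: homologous recombination (15 genes), the Fanconi pathway (8), signaling at breaks (3), end joining (8), nucleotide excision (4), base excision (4) and mismatch repair (2). RNA was sequenced from tumors that grew in the brains of C57BL/6 mice after injection of the murine glioblastoma line mG7080, to ask how the absence of Endocan, the proteoglycan encoded by Esm1 and secreted by vascular endothelial cells, bears on the tumor. There were 3 libraries from wild-type hosts (WT 1, WT 2 and WT 3) and 3 from Esm1 knock-out hosts (KO 1, KO 2 and KO 3). mG7080 is a single gliomasphere culture from a tumor of a mouse model with deletion of tumor suppressor genes, so the tumor cells of both groups carried these deletions. The Esm1 deletion was in the KO host and not in the injected cells, the labels name no other treatment of either group, and the tumors were taken once they had formed. The study's reporting summary states that its mice were female, and it gives another age than the methods do. The methods list the KO mice as a gift of another laboratory and C57BL/6J mice as bought from a supplier, so if the WT hosts were the latter, genotype and source of the host cannot be told apart. Each library came from whole tumor tissue and mixed the RNA of the injected cells with that of the host, so fewer cells of a type cannot be told apart from less RNA per cell.

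DNA repair is divided among pathways that act on different lesions. A double strand break can be copied back from the sister chromatid by homologous recombination, which works in S and G2 phase and needs resected ends, or be sealed by non-homologous end joining, which works throughout the cell cycle with the Ku heterodimer and DNA-PK. The Fanconi proteins unhook crosslinks between strands and hand the resulting break to homologous recombination, while the excision and mismatch pathways replace damaged or mispaired bases on 1 strand. In glioblastoma these pathways matter for the response to radiation and to alkylating drugs, and many genes of homologous recombination are transcribed mainly in dividing cells.

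Total counts were between 17632070 and 22241832 per library, so that 3 counts, the most that a count of 0 allows, corresponded to between 0.132 and 0.170 CPM (counts scaled to library size, with TMM factors over the 6 libraries). Esm1 itself was counted 25, 21 and 82 times in WT 1, WT 2 and WT 3, and 1, 24 and 4 times in KO 1, KO 2 and KO 3. The library labelled KO 2 thus held Esm1 at the level of WT 1 and WT 2. On the first principal component of all genes, which took 86.2% of the variance, it lay between WT 1 and WT 3. The injected cells do not carry the Esm1 deletion, and the study measured almost no Endocan protein in medium of human gliomasphere lines. The source of the Esm1 counts in KO hosts was not tested. Whether the label of this library is right was not tested. Results are therefore given over all 6 libraries and in a fit of WT 1, WT 2, KO 1 and KO 3, the 4 libraries that the study's own results table uses without a stated reason, and counts of genes that fell also in a fit of the 5 libraries without it. The summed level of 12 proliferation markers was between 1267 and 2324 CPM in the WT libraries and was 132, 1405 and 34.8 CPM in KO 1, KO 2 and KO 3. That of 12 replication markers was between 808.4 and 1552 CPM in the WT libraries and 141.3, 870.7 and 96.4 CPM in the KO libraries. In contrast, 12 neuron markers summed to between 1900 and 5629 CPM in the WT libraries and to 12618, 4696 and 15414 CPM in the KO libraries, and 6 glioma cell markers to between 899.5 and 1255 CPM and to 301.4, 1121 and 217.8 CPM. In KO 2 each of these 4 sums lay within the WT range. The sums of other cell types were 3079 to 7265 CPM in KO and 1314 to 3204 CPM in WT libraries for myelinating oligodendrocytes, 3581 to 5519 and 2258 to 3252 CPM for astrocytes, 375.4 to 533.9 and 375.5 to 452.3 CPM for microglia, 4.88 to 34.2 and 22.5 to 26.7 CPM for T cells, and 136.9 to 186.5 and 134.2 to 174.3 CPM for endothelial cells. Of the 5 T cell markers 4 fell in the 4-library fit, each by more than 4-fold, with a median log2 fold change of -2.93 beside -2.60 for the glioma markers and 1.70 for the neuron markers, while Cd4 stood at 22.8 CPM in KO 1 and at no more than 10.3 CPM in the WT libraries. The astrocyte marker Gfap went against the sum of its list and fell by 2.26 in the same fit (adjusted p = 0.034). The microglia markers were split: of 7, 2 fell and 0 rose in that fit, where 13.9% and 2.87% of all genes did. Their fold changes were below 0 for 5 and above it for 2. None of these markers was at 0 in any library, and their part in the results on repair genes was not tested beyond a fit with the neuron level as a covariate.

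Over all 6 libraries the repair genes lay lower in KO than in WT tumors for the most part, but none passed the test. The log2 fold change (KO minus WT) was negative for 38 of the 44 and positive for 6, with a median of -0.90 beside -0.02 over the 16166 genes tested. By the quasi-likelihood test of edgeR, adjusted after Benjamini-Hochberg, 0 of the 44 passed an adjusted p of 0.05, as did 0% of all genes, and the smallest adjusted p among the 44 was 0.184. With p under 0.05 before adjustment, 14 of the 44 were lower and 0 higher, where 11.9% of all genes were lower. DESeq2, which gave no adjusted p for 1 of the 44, called 1 of them lower, Atr, where it called 2.67% of all genes lower, and edgeR's exact test and limma-voom called 0 (0.241% and 0% of all genes), with 22 and 28 of the 44 lower at an unadjusted p under 0.05, where 11.7% and 17.0% of all genes were. All 3 KO libraries lay below all 3 WT libraries for 14 of the 44, where 14.8% of all genes did so, and above them for 1, Mus81, where 12.6% of all genes did so. The pattern was not shared evenly by the KO tumors: KO 1 and KO 3 were both below every WT library for 33 of the 44 (40.4% of all genes), whereas the library labelled KO 2 was below every WT library for 16 (22.6% of all genes), within the WT range for 24 and above it for 4.

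**Figure D1:**
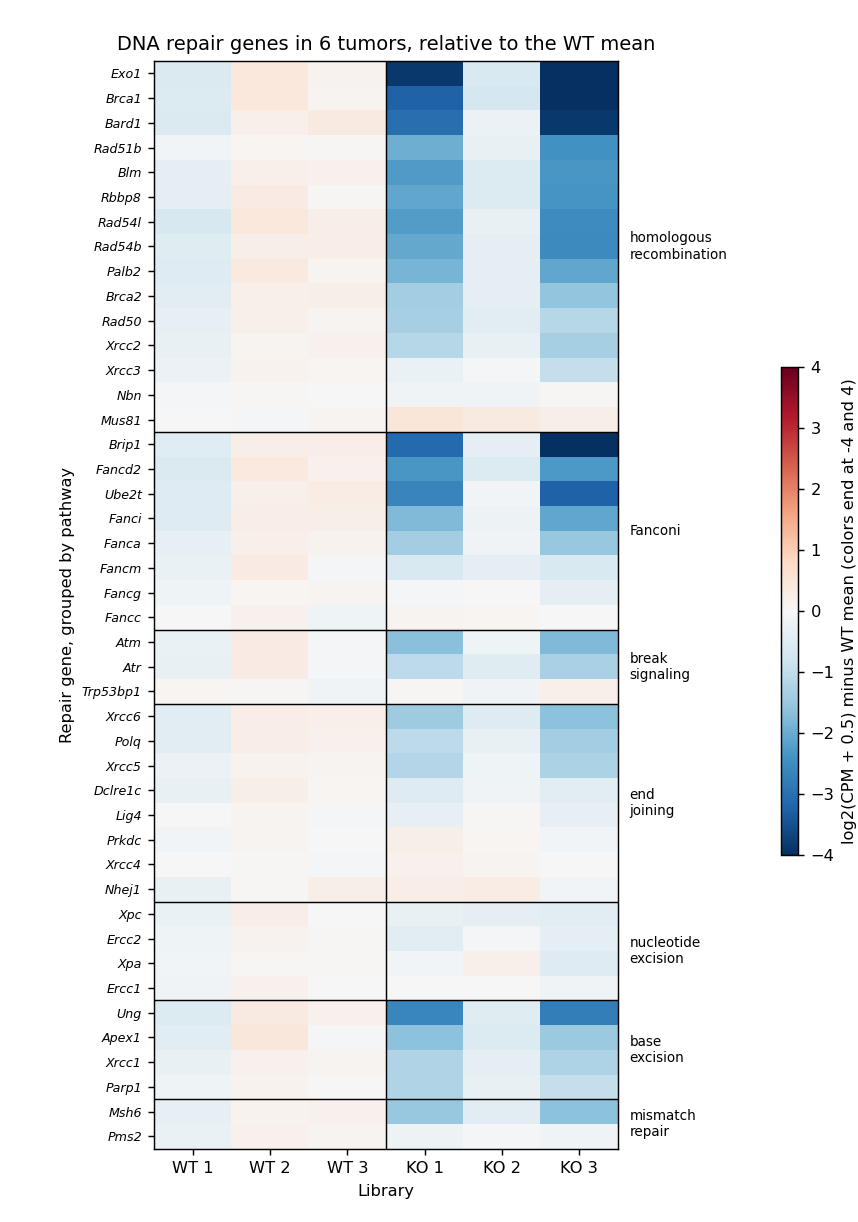
Each row is 1 of the 44 repair genes, grouped by pathway and ordered within it by fold change, and each column is 1 library; the color is log2(CPM + 0.5) minus the mean of the 3 WT libraries, ending at -4 and 4. KO 1 and KO 3 are blue in most genes of homologous recombination, the Fanconi pathway and base excision, near white in nucleotide excision, and KO 2 is pale like WT 1.

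Without the library labelled KO 2, genes of most pathways passed the test. In the fit of WT 1, WT 2, KO 1 and KO 3, 26 of the 44 fell in KO tumors at an adjusted p under 0.05, where 13.9% of the 16183 genes tested fell, and 0 of the 44 rose, where 2.87% of all genes rose. At an unadjusted p under 0.05, 28 were below and 0 above the WT level, where 26.2% and 19.9% of all genes were. The median log2 fold change of the 44 was -1.20 beside -0.03 over all genes. Of the 26, 13 fell by more than 4-fold, where 1008 of the 16183 genes tested did. DESeq2 and edgeR's exact test each called 27 lower, the same 26 and Polq, and limma-voom called 25 of the 26, without Xrcc2, where the 3 tools called 19.5%, 22.1% and 12.4% of all genes lower. In the fit of the 5 libraries other than the one labelled KO 2, 28 of the 44 fell (28.3% of all genes fell), again the same 26, together with Fancm and Polq. The 5-library fit was singled out because of the values of the library it omits, and its adjusted p does not allow for that choice. The 4-library fit also leaves out that library, together with WT 3, and was added with earlier results of these data known. Its adjusted p does not allow for the choice of libraries either. The calls of the 4-library fit rested on both KO tumors: 11 of the 44 passed without KO 1 (5.62% of all genes) and 2 without KO 3 (1.54%), and 31 passed without WT 1 (27.5%) and 25 without WT 2 (12.5%). With the neuron level of each library as a covariate over all 6 libraries, the median of the 44 was -0.17, 32 were negative, 0 passed the adjusted test and 2 were lower at an unadjusted p under 0.05, where 2.36% of all genes were.

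**Figure D2:**
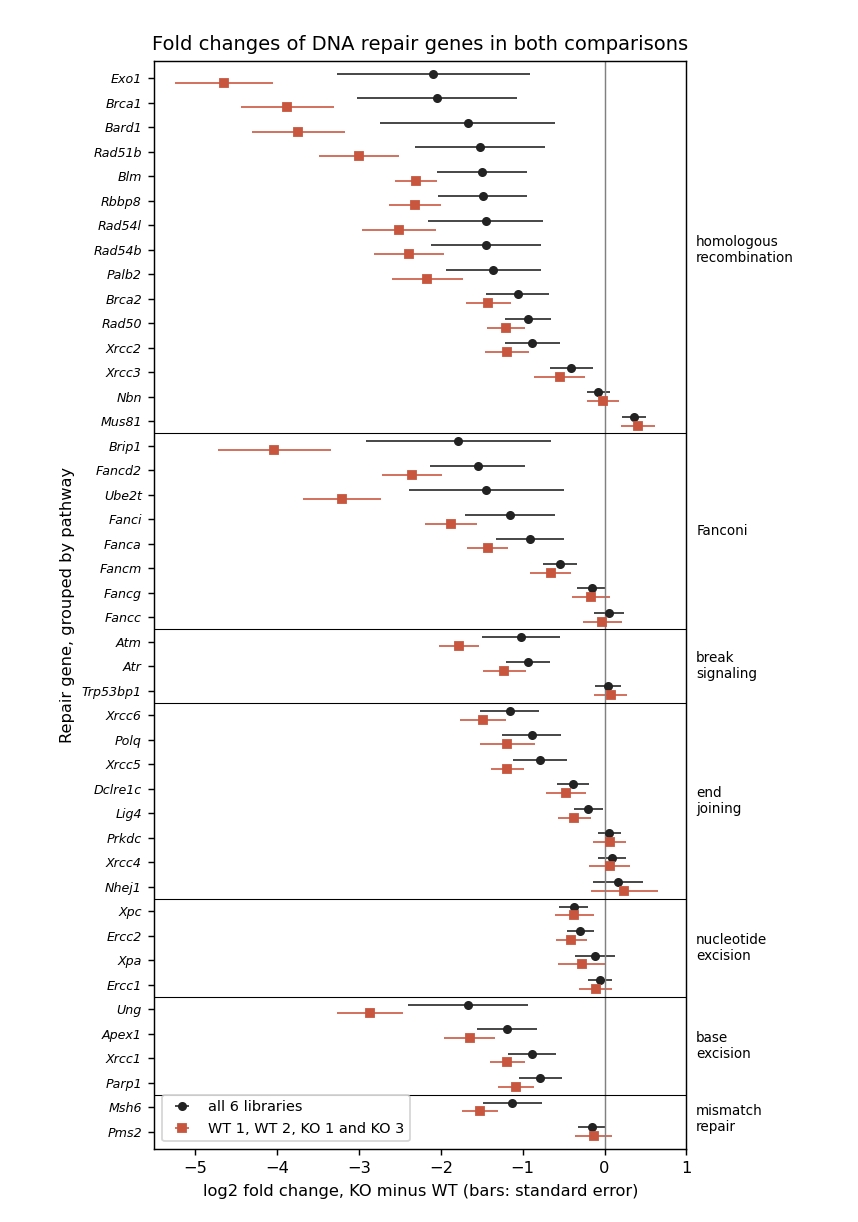
Log2 fold change (KO minus WT, horizontal axis) of each repair gene over all 6 libraries (black circles) and over WT 1, WT 2, KO 1 and KO 3 (red squares), with bars of 1 standard error. Exo1 lies farthest left in the 4-library fit at -4.65, and the genes of nucleotide excision stay between -0.40 and 0 in both fits.

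The pathways differed in how many of their genes were lower. In the 4-library fit, where 13.9% of all genes fell, 1008 of the 16183 genes tested fell by more than 4-fold. There 12 of 15 genes of homologous recombination fell, 9 of them by more than 4-fold, with a median log2 fold change of -2.30. In the Fanconi pathway 5 of 8 fell, with a median of -1.65, and in base excision 4 of 4, with a median of -1.42. Both kinases of break signaling fell, with a median of -1.23 over the 3 genes. In end joining 2 of 8 genes fell, beside the 13.9% of all genes, with a median of -0.42. In nucleotide excision 0 of 4 genes passed edgeR's test, adjusted or at an unadjusted p under 0.05, with a median of -0.33. With so few genes neither count can be set apart from the share over all genes. Of the 2 mismatch repair genes 1 fell. In the 5-library fit the counts were 12 of 15 for homologous recombination, 6 of 8 for the Fanconi pathway, 4 of 4 for base excision, 2 of 3 for break signaling, 3 of 8 for end joining, 0 of 4 for nucleotide excision and 1 of 2 for mismatch repair, with 28.3% over all genes. Over all 6 libraries the order was similar with smaller values, from -1.45 for homologous recombination, -1.04 for base excision, -1.03 for the Fanconi pathway, -0.94 for break signaling and -0.64 for mismatch repair to -0.29 for end joining and -0.21 for nucleotide excision. Differences between pathways were not tested, since the genes of a pathway are not replicates of a condition.

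**Figure D3:**
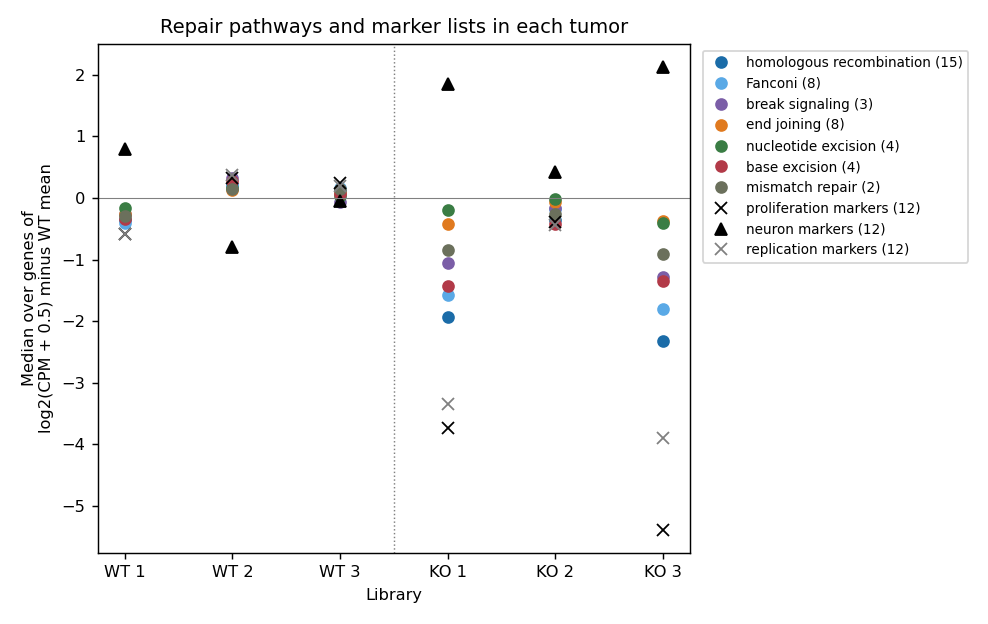
Median over the genes of each pathway (colored circles) of log2(CPM + 0.5) minus the WT mean, in each of the 6 libraries, with the same for 12 proliferation, 12 replication and 12 neuron markers. In KO 1 and KO 3 homologous recombination lies lowest of the pathways, at -1.94 and -2.33, above both dividing cell lists, while the neuron markers lie at 1.85 and 2.13.

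Library by library the median of the 44 genes ran in the direction of the proliferation and replication markers, and opposite to the neuron markers. Relative to the WT mean, the median of the 44 on the log2(CPM + 0.5) scale was -0.29 in WT 1, 0.19 in WT 2 and 0.11 in WT 3, and it was -1.21 in KO 1, -0.29 in KO 2 and -1.30 in KO 3. The library labelled KO 2 thus stood level with WT 1. For homologous recombination the same medians were -0.35, 0.21 and 0.12 in the WT libraries and -1.94, -0.36 and -2.33 in the KO libraries, and for nucleotide excision -0.16, 0.16 and 0.03 against -0.20, -0.02 and -0.41. The proliferation markers ran farther in the same direction, at -0.58, 0.32 and 0.24 in the WT libraries and -3.74, -0.39 and -5.39 in the KO libraries.

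In homologous recombination the lowest fold changes belonged to Exo1, Brca1 and Bard1. Exo1, an exonuclease that resects broken ends, stood at 26.4, 53.4 and 43.7 CPM in WT 1, WT 2 and WT 3 and at 2.27, 25.7 and 0.883 CPM in KO 1, KO 2 and KO 3. All 3 KO values were below all WT values, the library labelled KO 2 by little. Exo1 fell by 4.65 ± 0.60 (SE) on the log2 scale in the 4-library fit, or 25.2-fold (adjusted p = 0.034), and its value over all 6 libraries was -2.09 ± 1.18 (adjusted p = 0.241). Brca1, the tumor suppressor that directs ends toward recombination (chr11:101488764-101551955, minus strand, GRCm38), had 34.5, 69.0 and 55.3 CPM in the WT libraries and 4.94, 31.3 and 2.08 CPM in the KO libraries. Again no KO value reached the lowest WT value. Brca1 fell by 3.88 ± 0.56 in the 4-library fit (adjusted p = 0.034), with -2.05 ± 0.98 over 6 (adjusted p = 0.199). For Bard1, the partner of Brca1 in its ubiquitin ligase, the WT libraries gave 10.5, 18.5 and 20.6 CPM and the KO libraries 1.53, 13.4 and 0.623 CPM. The library labelled KO 2 lay inside the WT range, and KO 1 and KO 3 lay below it. Bard1 fell by 3.74 ± 0.57 in the 4-library fit (adjusted p = 0.034), and its value over 6 was -1.67 (adjusted p = 0.284).

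Brca2, which acts on resected single-stranded DNA, had 32.1, 49.8 and 51.1 CPM in the WT libraries and 16.2, 33.3 and 14.2 CPM in the KO libraries. Its groups overlapped only through the library labelled KO 2, which stood just above WT 1. Brca2 fell by 1.42 ± 0.27 in the 4-library fit (adjusted p = 0.038) and was at -1.06 ± 0.38 over 6 (adjusted p = 0.184). The remaining genes that fell in the 4-library fit had log2 fold changes of -3.00 for Rad51b, an accessory protein of strand exchange, -2.51 and -2.39 for Rad54l and Rad54b, which remodel DNA for strand invasion, -2.32 for Rbbp8 (CtIP), which starts resection, and -2.30 for Blm, the Bloom helicase. Palb2, which joins Brca1 to Brca2, was at -2.17, Rad50, of the complex that senses breaks, at -1.21, and Xrcc2, another accessory protein of strand exchange, at -1.19. Over 6 libraries none of these 8 genes passed, with log2 fold changes from -1.52 for Rad51b to -0.88 for Xrcc2 and adjusted p between 0.184 and 0.218. Rad54b shares 2068 exonic bases with Fsbp on the same strand and Rad54l 721 with Lrrc41 on the opposite strand, and reads there cannot be assigned with certainty to either gene.

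3 genes of the same pathway did not pass in either fit. Nbn, the third subunit of the Rad50 complex, gave 21.7, 23.3 and 23.2 CPM in the WT libraries and 20.7, 20.4 and 23.4 CPM in the KO libraries, overlapping groups with a log2 fold change of -0.08 ± 0.14 over 6 and -0.02 ± 0.20 over 4. In KO 3 its partner Rad50 was at 31.8 CPM, beside at least 56.9 CPM in WT tumors, while Nbn was level with the highest WT tumor. Xrcc3, an accessory protein that acts late, had a log2 fold change of -0.40 over 6 and -0.55 over 4 libraries (adjusted p = 0.295 and 0.217). Mus81, an endonuclease that cuts joint molecules, was the only 1 of the 44 with every KO library above every WT library, at 18.8, 17.7 and 20.2 CPM in WT and 26.3, 24.2 and 22.1 CPM in KO. Its log2 fold change was 0.36 ± 0.15 over 6 libraries (adjusted p = 0.185) and 0.41 ± 0.21 over 4 (adjusted p = 0.178), and its exons share 173 bases with Efemp2 on the opposite strand.

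**Figure D4:**
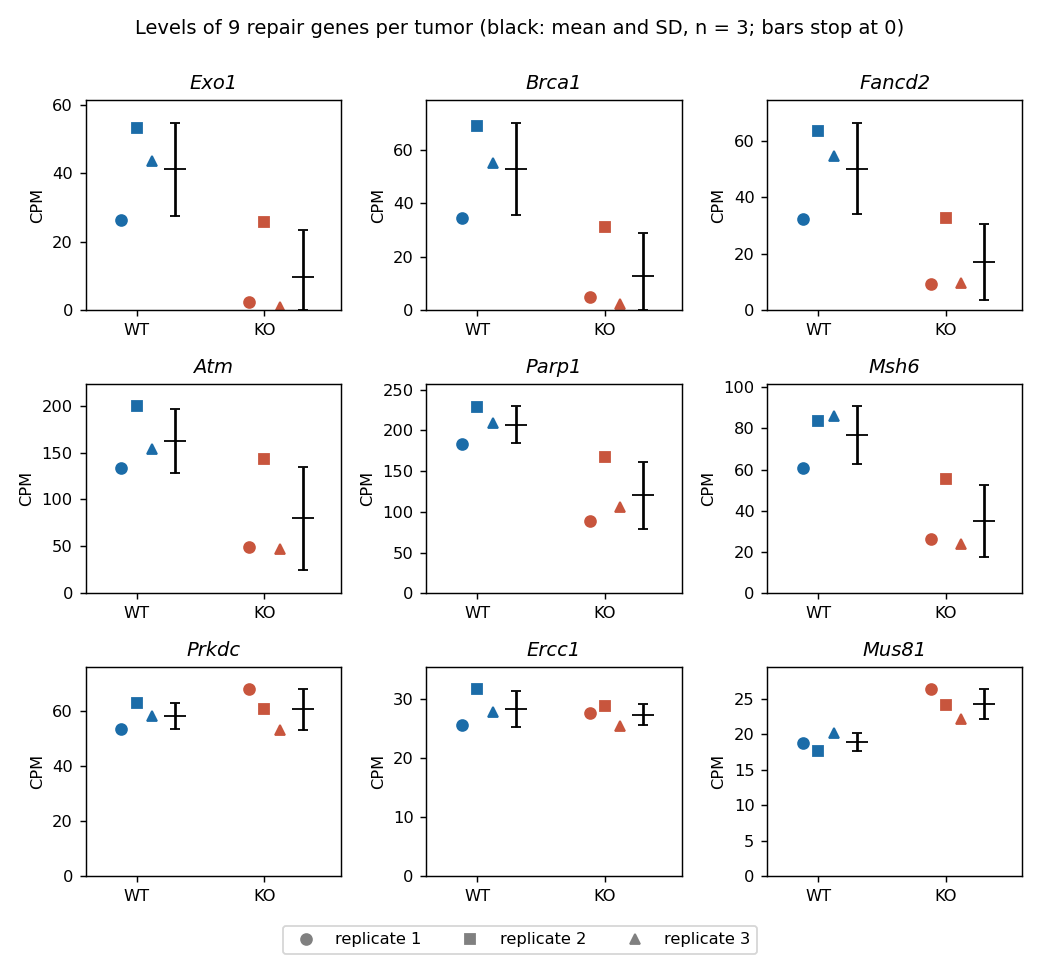
CPM of 9 repair genes in each tumor, WT in blue and KO in red, with circles, squares and triangles for replicates 1, 2 and 3 and black bars for the mean and SD of 3 libraries, which stop at 0. In the upper 6 genes KO 1 and KO 3 lie below all WT tumors and the square of KO 2 lies near the lowest of them; in Prkdc and Ercc1 the groups overlap, and in Mus81 the 3 KO tumors lie highest.

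In the Fanconi pathway the lowest fold changes belonged to Brip1, Fancd2 and Ube2t. Brip1, a helicase that binds Brca1, stood at 12.7, 21.2 and 22.04 CPM in the WT libraries and at 1.65, 14.0 and 0.415 CPM in the KO libraries, the last of these from 8 counts. KO 1 and KO 3 lay far below the WT range and the library labelled KO 2 inside it. Brip1 fell by 4.03 ± 0.69 in the 4-library fit (adjusted p = 0.034), and its value over 6 was -1.79 ± 1.13 (adjusted p = 0.280). Fancd2, which is ubiquitinated at stalled forks and marks activation of the pathway, had 32.1, 63.6 and 54.7 CPM in the WT libraries and 9.08, 32.6 and 9.45 CPM in the KO libraries. The library labelled KO 2 again stood beside WT 1. Fancd2 fell by 2.36 ± 0.36 in the 4-library fit (adjusted p = 0.034) and was at -1.55 ± 0.58 over 6 (adjusted p = 0.184). Ube2t, the conjugating enzyme that places that ubiquitin, had 8.95, 15.1 and 16.3 CPM in WT and 1.65, 12.1 and 0.935 CPM in KO, and fell by 3.21 ± 0.47 in the 4-library fit (adjusted p = 0.034), with -1.45 over 6 (adjusted p = 0.292). Fanci, the partner of Fancd2, fell by 1.88, and Fanca, of the core ligase, by 1.43 in the 4-library fit, and over 6 libraries they were at -1.15 and -0.91 (adjusted p = 0.199 and 0.192).

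The other genes of the pathway lay closer to the WT level. Fancm, the helicase that anchors the core complex, was at -0.54 over 6 and -0.66 over 4 libraries (adjusted p = 0.184 and 0.106), and all 3 of its KO values were below its WT values. Fancg, a core subunit, had 17.8, 21.1 and 21.9 CPM in WT and 19.0, 20.01 and 15.4 CPM in KO, with a log2 fold change of -0.16 ± 0.18 over 6 and -0.17 ± 0.23 over 4 (adjusted p = 0.518 and 0.584). Fancc, also of the core, had 11.2, 12.4 and 9.78 CPM in WT and 12.04, 11.6 and 11.0 CPM in KO. Its groups overlapped fully, and it was the only 1 of the 44 whose sign differed between the fits, at 0.05 ± 0.18 over 6 and -0.03 ± 0.24 over 4. In KO 1 both Fancc and Fancg were thus within the WT range while Fancd2 and Ube2t were far below it, and in KO 3 Fancg was below it by little.

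Break signaling showed a split of the same kind. Atm, the kinase that answers double strand breaks, had 133.3, 199.7 and 153.5 CPM in the WT libraries and 49.3, 142.8 and 47.2 CPM in the KO libraries. KO 1 and KO 3 had well under the lowest WT level, and the library labelled KO 2 was within the WT range. Atm fell by 1.78 ± 0.25 in the 4-library fit (adjusted p = 0.034), and was at -1.02 ± 0.48 over 6 (adjusted p = 0.195). Atr, the kinase that answers stalled forks, gave 52.9, 82.1 and 63.4 CPM in WT and 31.1, 45.9 and 26.3 CPM in KO, without overlap. Atr fell by 1.23 ± 0.26 in the 4-library fit (adjusted p = 0.043), with -0.94 ± 0.27 over 6 (adjusted p = 0.184), and 668 of its exonic bases are shared with 1700065D16Rik on the opposite strand. Trp53bp1 (53BP1), which shields ends from resection and so favors end joining, had 175.4, 169.2 and 150.8 CPM in WT and 172.0, 148.7 and 190.4 CPM in KO. Its groups overlapped, with a log2 fold change of 0.04 ± 0.16 over 6 and 0.08 ± 0.20 over 4, and it shares 1873 exonic bases with Tubgcp4 on the opposite strand. Brca1, which opposes 53BP1 at broken ends, was thus low in KO 1 and KO 3, where Trp53bp1 was within and above the WT range.

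In end joining the genes of the Ku heterodimer stood apart from those that act after it. Xrcc6 (Ku70) had 49.8, 82.3 and 79.2 CPM in the WT libraries and 25.3, 47.4 and 21.7 CPM in the KO libraries, without overlap, and Xrcc5 (Ku80) had 48.7, 62.9 and 61.8 CPM and 25.1, 51.4 and 23.7 CPM. Both subunits were therefore lower in KO 1 and KO 3 than in any WT tumor. Xrcc6 fell by 1.48 ± 0.28 (adjusted p = 0.038) and Xrcc5 by 1.19 ± 0.20 (adjusted p = 0.034) in the 4-library fit, and over 6 they were at -1.16 and -0.79 (adjusted p = 0.184 and 0.185). Polq, the polymerase of the alternative route that joins ends by short homologies, had 16.7, 28.3 and 26.4 CPM in WT and 11.1, 18.8 and 8.57 CPM in KO. It was at -1.19 ± 0.33 in the 4-library fit, which missed the threshold (adjusted p = 0.063), and passed it in the 5-library fit (adjusted p = 0.017).

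The core ligation machinery had no member past the threshold. Prkdc, the catalytic subunit of DNA-PK, had 53.5, 63.0 and 58.3 CPM in WT and 68.0, 60.9 and 53.3 CPM in KO. Xrcc4, the scaffold of ligase IV, had 10.1, 10.5 and 9.83 CPM in WT and 11.4, 11.0 and 10.02 CPM in KO. Nhej1 (XLF), which bridges the ends, had 1.51, 2.06 and 2.43 CPM in WT and 2.44, 2.51 and 1.77 CPM in KO, the thinnest of the group at 32 to 57 counts. The groups overlapped in each of the 3. Their log2 fold changes were 0.06 ± 0.14, 0.09 ± 0.17 and 0.16 ± 0.31 over 6 libraries, and 0.06 ± 0.20, 0.06 ± 0.25 and 0.24 ± 0.41 over 4, with adjusted p between 0.652 and 0.849 in the latter. With total counts alone as the scale, Prkdc and Xrcc4 were below 0 in both fits and Nhej1 in the 4-library fit. Lig4, the ligase itself, and Dclre1c (Artemis), the nuclease opened by DNA-PK, were at -0.20 and -0.38 over 6 and -0.37 and -0.47 over 4.

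The genes of nucleotide excision lay near the WT level. Xpc, which finds bulky lesions, had 28.9, 42.1 and 35.7 CPM in the WT libraries and 28.6, 27.6 and 26.1 CPM in the KO libraries, below the WT range by a narrow margin in all 3. Ercc2 (Xpd), a helicase of TFIIH, had 46.3, 58.8 and 54.0 CPM and 39.3, 50.3 and 39.8 CPM. Only KO 1 and KO 3 were below the WT range there. Xpa, which checks the lesion, had 10.1, 11.4 and 11.4 CPM and 10.1, 12.7 and 7.53 CPM, and Ercc1, of the nuclease that cuts on the 5' side, had 25.6, 31.6 and 27.8 CPM and 27.6, 28.8 and 25.3 CPM. In both of these the groups overlapped. The log2 fold changes over 6 libraries were -0.38 ± 0.18 for Xpc, -0.30 ± 0.16 for Ercc2, -0.12 ± 0.24 for Xpa and -0.06 ± 0.15 for Ercc1, with adjusted p between 0.196 and 0.785. Over 4 libraries they were -0.37, -0.40, -0.28 and -0.11, with adjusted p between 0.145 and 0.692, and Xpc and Ercc2 passed when WT 1 was left out. The median of the 4 genes over 6 libraries, -0.21, was close to the -0.20 of end joining without Polq.

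Base excision was the only group in which every gene fell in the 4-library fit. Ung, the glycosylase that removes uracil, had 13.5, 25.8 and 22.2 CPM in the WT libraries and 2.84, 13.9 and 2.49 CPM in the KO libraries. Apex1, the endonuclease that cuts at abasic sites, had 78.6, 142.5 and 101.4 CPM and 33.2, 70.6 and 36.9 CPM. KO 1 and KO 3 were below the WT range for both genes, and the library labelled KO 2 was below it for Apex1. Ung fell by 2.87 ± 0.41 (adjusted p = 0.034) and Apex1 by 1.65 ± 0.31 (adjusted p = 0.037) in the 4-library fit. Xrcc1, the scaffold of single strand break repair, had 54.0, 74.6 and 71.6 CPM in WT and 28.3, 51.8 and 27.9 CPM in KO, and Parp1, the sensor of such breaks (chr1:180568924-180601254, plus strand, GRCm38), had 183.6, 229.1 and 209.1 CPM in WT and 88.5, 166.9 and 105.7 CPM in KO. For both genes no KO tumor reached the lowest WT tumor. Xrcc1 fell by 1.19 ± 0.21 (adjusted p = 0.035) and Parp1 by 1.08 ± 0.22 (adjusted p = 0.042), while over 6 libraries the 4 genes were at -1.67, -1.20, -0.89 and -0.78 (adjusted p between 0.184 and 0.188).

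In mismatch repair, Msh6, which recognizes mispairs, had 60.6, 83.5 and 86.2 CPM in the WT libraries and 26.3, 55.3 and 23.7 CPM in the KO libraries, without overlap. Msh6 fell by 1.52 ± 0.22 in the 4-library fit (adjusted p = 0.034), with -1.13 ± 0.36 over 6 (adjusted p = 0.184). Pms2, which nicks the strand to be replaced, had 19.5, 26.3 and 25.4 CPM and 20.5, 22.6 and 21.2 CPM, with overlapping groups and -0.15 ± 0.17 over 6 and -0.13 ± 0.23 over 4 (adjusted p = 0.520 and 0.660).

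Levels between genes were compared with the authors' FPKM, which divide by transcript length. Among the 44, Apex1 was the most abundant in WT tumors at 87.2 ± 27.6 FPKM (SD, n = 3), followed by Parp1 at 57.3 ± 7.25, Xrcc6 at 35.4 ± 9.50, Xrcc1 at 32.8 ± 5.97 and Ercc1 at 27.7 ± 3.42. The ranges of mean ± SD overlapped for Apex1 and Parp1, for Xrcc6 and Xrcc1 and for Xrcc1 and Ercc1, whereas those of Parp1 and Xrcc6 did not. At the other end were Rad51b at 2.18 ± 0.210 and Nhej1 at 2.51 ± 0.612 FPKM. The median of the genes of a pathway was 45.1 FPKM in WT and 23.4 FPKM in KO tumors for base excision, 14.0 and 10.9 for nucleotide excision, 8.23 and 3.90 for the Fanconi pathway, 7.93 and 2.65 for homologous recombination and 5.98 and 4.71 for end joining. In WT tumors the genes of homologous recombination and end joining were thus expressed at like levels per length, with the KO median of the first the lower of them.

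Promoter sequences were searched for motifs of transcription factors of dividing cells. RefSeq windows (GRCm38.p6) of 300 bases, from 250 before to 50 after the transcription start, were available for 35 of the 44. The motifs, sought on both strands, were E2F (TTTCCCGC, TTTGGCGC or TTTCGCGC), the cell cycle homology region CHR (TTTGAA), the CCAAT box (CCAAT) and the E-box (CACGTG), none of which contains another. E2F factors are known for driving genes of S phase, and NF-Y binds CCAAT boxes. An E2F match was present in 5 of the 35 genes, or 14.3%, where 2.12% of the 27025 genes with a window held it, and the 5 were Bard1, Brca2, Fancg, Msh6 and Xrcc6. Of the 20 genes with a window that fell in the 4-library fit 4 had it, and of the 15 others 1, Fancg. The CCAAT box was found in 60.0% of the 35 and in 41.1% of all genes, the CHR in 8.57% and 20.2%, and the E-box in 8.57% and 8.09%. A match describes the letters of the window and not a bound site. Exo1, Fancd2, Nbn, Prkdc, Rad50, Rad54b, Rbbp8, Xpc and Xrcc2 were without an entry. The windows below are those of Bard1, Xrcc6 and Msh6, genes of 3 pathways that fell and have the E2F match, in capitals, and of Mus81, the gene above the WT range in every KO tumor, which has none. All are written 5' to 3' on the strand of the gene.
Bard1 (chr1:71102923-71103222, minus strand): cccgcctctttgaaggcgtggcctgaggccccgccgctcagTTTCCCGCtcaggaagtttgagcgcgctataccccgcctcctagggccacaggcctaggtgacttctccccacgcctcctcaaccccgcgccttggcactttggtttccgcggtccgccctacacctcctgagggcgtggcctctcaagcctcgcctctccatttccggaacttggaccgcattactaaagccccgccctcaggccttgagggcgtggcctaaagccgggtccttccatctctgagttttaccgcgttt
Xrcc6 (chr15:82016119-82016418, plus strand): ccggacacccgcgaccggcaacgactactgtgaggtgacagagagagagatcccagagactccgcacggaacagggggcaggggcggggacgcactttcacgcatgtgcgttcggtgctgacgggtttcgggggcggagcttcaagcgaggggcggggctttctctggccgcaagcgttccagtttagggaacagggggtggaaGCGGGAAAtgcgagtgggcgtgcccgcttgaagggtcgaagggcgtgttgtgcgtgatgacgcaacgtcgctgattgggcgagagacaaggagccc
Msh6 (chr17:87974800-87975099, plus strand): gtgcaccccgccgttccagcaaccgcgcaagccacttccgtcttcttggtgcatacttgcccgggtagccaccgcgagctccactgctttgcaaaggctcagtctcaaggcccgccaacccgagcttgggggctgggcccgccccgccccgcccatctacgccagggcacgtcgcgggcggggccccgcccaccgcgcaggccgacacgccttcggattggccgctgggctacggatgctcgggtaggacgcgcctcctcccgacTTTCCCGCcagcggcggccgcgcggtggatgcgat
Mus81 (chr19:5488330-5488629, minus strand): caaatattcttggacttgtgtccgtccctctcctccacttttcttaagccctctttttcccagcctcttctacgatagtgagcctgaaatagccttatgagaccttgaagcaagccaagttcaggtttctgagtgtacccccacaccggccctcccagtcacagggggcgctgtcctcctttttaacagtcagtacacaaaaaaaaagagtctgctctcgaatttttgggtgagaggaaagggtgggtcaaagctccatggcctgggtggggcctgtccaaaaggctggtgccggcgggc
In Bard1 the match began 209 bases before the start, in Xrcc6 46 bases before it, and in Msh6 15 bases after it.

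Genes of these pathways outside the 44 were counted from a list of 87, of which 86 were in the table. Over all 6 libraries 0 of the 86 passed edgeR's adjusted test (0% of all genes), 24 were lower and 3 higher with p under 0.05 before adjustment (11.9% and 15.2% of all genes), and the median log2 fold change was -0.57. DESeq2 called 5 lower and 3 higher there, where it called 2.67% and 4.79% of all genes, and edgeR's exact test and limma-voom 0. In the 4-library fit 25 fell and 0 rose, where 13.9% and 2.87% of all genes did, with a median of -0.79. Before adjustment 45 were below and 2 above the WT level (26.2% and 19.9% of all genes). DESeq2, the exact test and limma-voom called 37, 43 and 24 lower (19.5%, 22.1% and 12.4% of all genes) and 2, 2 and 0 higher (16.6%, 16.0% and 2.94%). Without KO 3 the 25 became 0 (1.54% of all genes), without KO 1 10 (5.62%) and without WT 1 50 (27.5%). By pathway, beside 13.9% of all genes, 10 of 17 fell in homologous recombination, 2 of 9 in the Fanconi pathway, 6 of 9 in break signaling, 1 of 6 in end joining, 0 of 20 in nucleotide excision (4 lower at an unadjusted p under 0.05, and 2 by DESeq2 and 3 by the exact test), 3 of 17 in base excision, 2 of 5 in mismatch repair and 1 of 3 in direct reversal. Base excision, in which every chosen gene fell, thus had 3 of 17 in the wider list. In the 5-library fit 48 of the 86 fell, where 28.3% of all genes did, among them 9 of 17 in base excision and 5 of 20 in nucleotide excision.

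**Figure D5:**
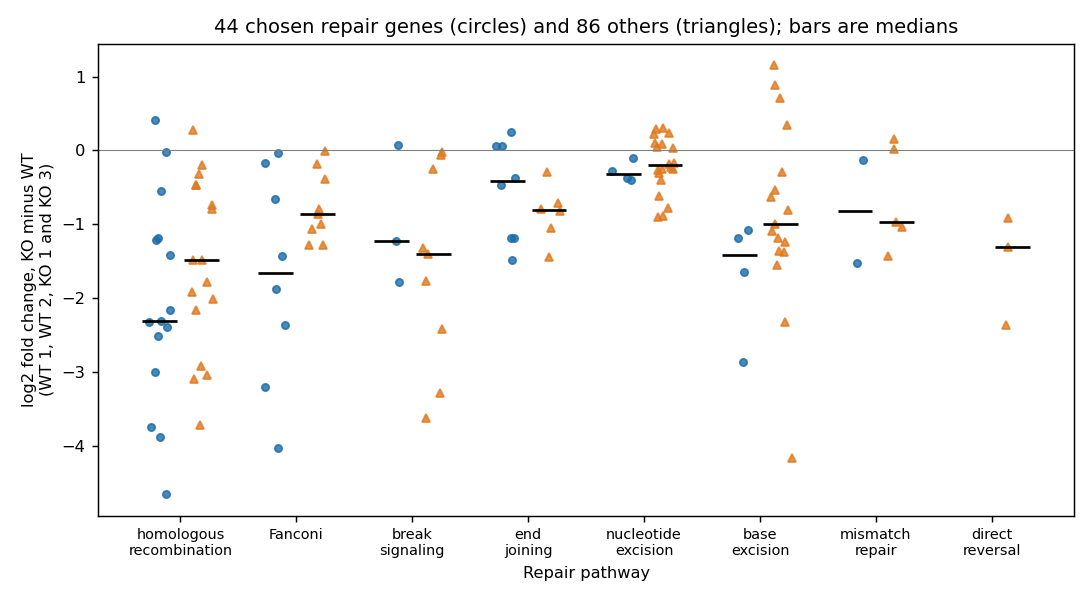
Log2 fold change (KO minus WT) over WT 1, WT 2, KO 1 and KO 3, by pathway, for the 44 chosen genes (blue circles) and the 86 others (orange triangles), with medians as bars. The medians of nucleotide excision, -0.33 and -0.20, are nearest to 0, and those of homologous recombination, -2.30 and -1.48, are the lowest of the pathways that have both.

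Genes at the ends of these lists in the 6-library fit, where none of them passed, had these log2 fold changes in the 4-library fit unless 6 libraries are named. Sfr1, an accessory factor of recombination, was at 0.18 over 6 and 0.28 over 4 libraries. Chek1, the kinase below Atr, fell by 3.63 in the 4-library fit, whereas Rnf168, the ubiquitin ligase that recruits 53BP1, was at -0.017. Neil3, a glycosylase, fell by 4.17 ± 0.77, with 0.908 CPM in KO 1 and 0.156 CPM in KO 3, the latter from 3 counts. Neil2, another glycosylase of its family, was at 1.15 ± 0.57 (adjusted p = 0.168). Mgmt, which reverses alkylation of guanine and is known for resistance to temozolomide, had 2.97, 5.23 and 6.25 CPM in WT and 0.852, 3.39 and 0.727 CPM in KO, and fell by 2.36 ± 0.46 (adjusted p = 0.039), with -1.52 over 6 libraries (adjusted p = 0.190). Alkbh2, a demethylase of DNA bases, was at -0.91. Pms1, of mismatch repair, fell by 1.44 and Tdp1, which frees blocked ends, fell by 1.44, while Mlh3, also of mismatch repair, was at 0.16. Fancl, the Fanconi ligase, was at -1.07 (adjusted p = 0.065) and Slx4, a nuclease scaffold, at -0.0035. In nucleotide excision Gtf2h4, of TFIIH, was at -0.88 (adjusted p = 0.077) and Cdk7, the kinase of that complex, at 0.30.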

How the data were processed

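RNA of 6 tumors was sequenced. The authors counted reads on genes and deposited the counts as whole numbers without normalization, for 16729 genes, beside FPKM that the authors computed per gene and library. The deposited table also holds the authors' normalized values, log2 fold changes, p-values and false discovery rates, which were not used. Every gene of the table has a largest count of at least 5 and counts in at least 4 libraries. The submitters' processing notes name CASAVA 1.8.2, edgeR and mm10, and the labels the NEBNext Ultra kit, but the Ovation Ultralow kit and hg38 stand in the study's methods. The strand setting of the counting is not given in the sources used here. The study gives 3 mice per group for this comparison, but no label ties a library to an animal.

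Models were fitted to the counts with edgeR 4.0.16 under R 4.3.3 (filterByExpr with minimum count 10 and minimum total 15, TMM, glmQLFit and glmQLFTest, two-sided) on host genotype, adjusted after Benjamini-Hochberg across the tested genes, and calls at an adjusted p under 0.05. Fold changes are log2, KO minus WT, and standard errors were taken as the fold change divided by the root of F. Fits used all 6 libraries and, as a second comparison, WT 1, WT 2, KO 1 and KO 3. FPKM were used only to compare levels between genes. Positions and exon overlaps came from GENCODE vM21 (GRCm38), promoters from RefSeq, matched by symbol.

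The genes, pathway groups, other repair genes and marker lists were chosen with earlier results of these data known. CPM per library are given for the 3 lowest and 2 highest genes of each group by the 6-library fold change, all genes of groups of 4 or fewer, Brca1, Brca2, Fancd2, Atm, Prkdc and Parp1, genes with opposite signs in the fits, and the ends of the other lists, a few of which are not reported here. Counts and medians of lists carry no test. Alternatives were RLE, upper quartile and total count scaling, no filter, DESeq2 1.42.0, edgeR's exact test, limma-voom (limma 3.58.1), each replicate left out, the replicate number as a block and the neuron level as a covariate. On simulated data 98% of 2-fold changes were called with 6 libraries (16191 genes) and 83% with 4 (16149 genes), with 9 and 4 false calls. The simulation gave every gene the same fixed dispersion and placed changes only in well-counted genes. It checks that the code runs and does not give the power of the test on these tumors. Python 3.11.15 with matplotlib 3.10.9, numpy 2.4.6 and pandas 2.3.3 made the tables and plots. The floor of 3 counts covers counting error only, for PCR reads without molecular identifiers. The standard errors of the fits and the SD over 3 libraries also hold the spread between tumors.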

Additional observations from a re-analysis of the deposited data

How the results depend on the processing

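Over all 6 libraries 0 of the 44 genes passed under RLE, upper quartile or total count scaling, without the filter, with edgeR's exact test, with limma-voom and with the replicate block, and 1 passed with DESeq2. The replicate numbers did not pair the tumors (correlations of deviations 0.60, 0.64 and -0.25 for numbers 1, 2 and 3), and with the replicate block the median of the 44 was -0.95 with 26 lower at an unadjusted p under 0.05 (20.6% of all genes). With 1 library left out the number that fell ranged from 0 to 28, and the median from -1.25 to -0.72, in homologous recombination from -2.31 to -1.06 and in the Fanconi pathway from -1.72 to -0.75, the most negative without the library labelled KO 2; the other repair genes gave 0 to 48 lower and 0 to 3 higher. With the neuron level as a covariate the medians were -0.17 for all 44, -0.34 for homologous recombination, -0.14 for the Fanconi pathway, -0.17 for break signaling, 0.0074 for end joining, 0.075 for nucleotide excision, -0.35 for base excision and -0.17 for mismatch repair, and the sign turned for Xrcc3 (0.024), Lig4 (0.020), Fancg (0.071), Trp53bp1 (-0.14), Xpa (0.22), Ercc1 (0.14), Ercc2 (0.013) and Pms2 (0.088). The covariate and host genotype cannot be told apart with 6 tumors. In the 4-library fit leaving out 1 library gave 2 (without KO 3) to 31 (without WT 1) of the 44, and 0 to 50 lower and 0 to 3 higher of the other repair genes, with medians from -1.46 to -0.97 for all 44, -2.55 to -1.89 for homologous recombination, -1.93 to -1.31 for the Fanconi pathway, -1.49 to -0.90 for break signaling and -1.69 to -1.07 for base excision. Without KO 1 that fit had medians of -0.38 for end joining and -0.40 for nucleotide excision. A fit with a lone KO or WT tumor assumes that it varies like the other group. Total counts alone as the scale moved the median of all genes to -0.27 over 4 and -0.17 over 6 libraries. Over 4 it gave 40 other repair genes lower (22.3% of all genes) and medians of -2.56 for homologous recombination, -1.91 for the Fanconi pathway, -1.48 for break signaling, -0.57 for nucleotide excision and -1.08 for mismatch repair, and turned Trp53bp1 (-0.17), Xrcc4 (-0.18), Prkdc (-0.18) and Nhej1 (-0.0043), and over 6 Fancc (-0.10), Trp53bp1 (-0.12), Xrcc4 (-0.060) and Prkdc (-0.094). RLE scaling and DESeq2 each turned Nbn (0.011) and Fancc (0.0056) over 4 libraries. With 1 library left out the ranges that crossed 0 over 6 libraries were -0.010 to 0.14 for Fancc, -0.041 to 0.15 for Trp53bp1, -0.029 to 0.15 for Prkdc, -0.0061 to 0.35 for Nhej1, -0.29 to 0.056 for Xpa and -0.12 to 0.027 for Ercc1, and over 4 libraries -0.10 to 0.075 for Nbn, -0.0851 to 0.050 for Fancc, -0.019 to 0.17 for Xrcc4, -0.11 to 0.24 for Prkdc, -0.23 to 0.033 for Ercc1 and -0.31 to 0.077 for Pms2. The cause of these changes was not tested. No gene that fell in the 4-library fit changed sign in that fit under any of the scalings, filters, tools or replicates left out. With counts of 32 or more per library in Nhej1 but 6 to 79 in Rad51b and 8 to 444 in Brip1, the levels of the last 2 in KO 1 and KO 3 rest on few counts. Other genes with large falls had few counts there too, among them Exo1 (40 in KO 1 and 17 in KO 3), Bard1 (27 and 12) and Ube2t (29 and 18).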

Other observations

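A few base excision genes outside the 44, picked after their values were seen, lay in the other direction. Mpg, a glycosylase for alkylated purines, had 9.32, 7.83 and 7.59 CPM in the WT tumors (replicates 1, 2 and 3) and 16.98, 11.7 and 14.7 CPM in the KO tumors. Aptx, which clears abortive ligation products, had 27.0, 22.6 and 25.0 CPM and 39.9, 30.6 and 41.2 CPM, and Polb, the gap-filling polymerase of the pathway, had 36.5, 34.5 and 35.5 CPM and 44.5, 41.8 and 45.7 CPM. In these 3 genes every KO tumor, that labelled KO 2 included, was above every WT tumor. They were the only 3 of the 86 with that pattern, where 12.6% of all genes had it. Their log2 fold changes over 6 libraries were 0.81 ± 0.22, 0.58 ± 0.17 and 0.31 ± 0.12, each with an adjusted p of 0.184 by edgeR's quasi-likelihood test, so none passed, and over 4 libraries they were 0.89, 0.71 and 0.35 (adjusted p = 0.066, 0.061 and 0.157). The summed astrocyte markers were also higher in every KO than in every WT tumor, although Gfap of that list was lower, and the neuron and oligodendrocyte sums were higher in KO 1 and KO 3 only. The part of these cell types was not tested.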
